A study of Saccharomyces cerevisiae with 3 samples.

Results

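The yeast cell wall is a mesh of beta-glucan, with a little chitin, covered by an outer layer of mannoproteins. Transcripts of 10 genes that build, reshape or coat this wall were read in *Saccharomyces cerevisiae* strains without Spt3 or Spt8, subunits of the coactivator complex SAGA that bind the TATA-binding protein (TBP). The 10 genes were taken by their symbol in the array annotation, out of 5449 *S. cerevisiae* genes measured. They are the glucan synthase genes *FKS1* and *GSC2*, the glucanase and glucanosyltransferase genes *EXG1*, *EXG2*, *BGL2* and *GAS1*, and the wall mannoprotein genes *CWP1*, *CWP2*, *SED1* and *HSP150*. Each was read by 1 probe set, none of which the design marks as shared with another gene, and all 10 were above background on every array.

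RNA was taken from the wild type (WT), the *SPT3* deletion (*spt3Δ*) and the *SPT8* deletion (*spt8Δ*). The study's strain list gives both deletions as replacements of the gene with *KanMX*, which the labels do not state. All strains were in the BY4742 background according to the labels. They were grown in 5 mL of rich YPD medium at 30 °C to an optical density of 0.7. There was 1 Affymetrix Yeast Genome 2.0 array per strain, so each strain stands for 1 culture, no difference has a replicate error and no test between strains was possible. The signal of *SPT3* was at least 43.2-fold lower in *spt3Δ* than in WT, and that of *SPT8* at least 40.2-fold lower in *spt8Δ*. The strain list of the study gives a *MATa met15* genotype, in contrast with the labels. On all arrays the 4 measured alpha-specific genes had signals of 1110 to 9820 and the 7 a-specific genes 0.826 to 50.7; *LYS2*, which is deleted in BY4742, was not above background, and *MET17* (*MET15*) had signals of 6686 to 8377.

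Beta-glucan is made at the plasma membrane by a synthase whose catalytic subunit is Fks1 in growing cells, or its paralog Gsc2 (Fks2), which is known for its induction by wall stress, calcium signalling and lack of glucose. Secreted and membrane-anchored enzymes then trim, lengthen and branch the glucan chains. Mannoproteins are attached to this mesh, most of them through a remnant of a glycosylphosphatidylinositol (GPI) anchor, and the PIR proteins directly.

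All 10 genes had a lower signal in *spt3Δ* than in WT, by 1.07-fold to 2.61-fold, and 8 of the 10 in *spt8Δ*, by 1.06-fold to 2.10-fold for those 8. The exoglucanase gene *EXG1* lay furthest from WT in both mutants. *GSC2* stood apart in another way, with a low signal in *spt3Δ* alone. Over the 10 genes the log2 ratios had medians of −0.44 (*spt3Δ*) and −0.29 (*spt8Δ*), against 0.15 and 0.067 over all genes. Both comparisons use the same WT array. In RNA of whole cultures, fewer cells that express a gene and less RNA per cell cannot be told apart.

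**Figure D1:**
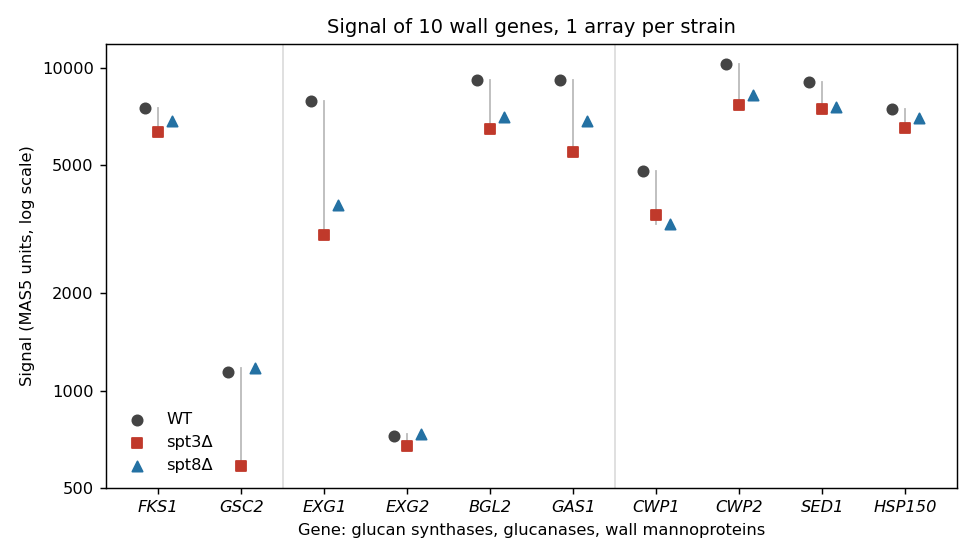
Signal of each of the 10 wall genes (y axis, MAS5 units, log scale) on the WT (circle), *spt3Δ* (square) and *spt8Δ* (triangle) arrays, 1 array per strain, with a grey line from the lowest to the highest. *EXG1* spans 3031 to 7908 and *GSC2* 584 to 1173, while *EXG2* and *HSP150* each lie within a narrow range.

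These ratios have to be read beside the brightness of the genes. Genes were divided into 20 bins of equal number by their mean log2 signal, and 6 of the 10 wall genes fell in the brightest bin, which held 273 genes. In that bin 93.8% of genes were below WT in *spt3Δ* (median log2 ratio −0.32) and 90.1% in *spt8Δ* (median −0.20). Over all 5449 genes, 38.8% were lower in *spt3Δ* and 41.1% in *spt8Δ*. A second value is therefore given for each gene below, the log2 ratio after an intensity-dependent (loess) scaling, which removes the trend of the ratio with signal. After it the median of the 10 genes was −0.28 in *spt3Δ* and −0.11 in *spt8Δ*, and 7 and 8 of them lay below 0, against 50.5% and 50.4% of all genes. Whether the trend arose on the arrays or in the cells was not tested.

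**Figure D2:**
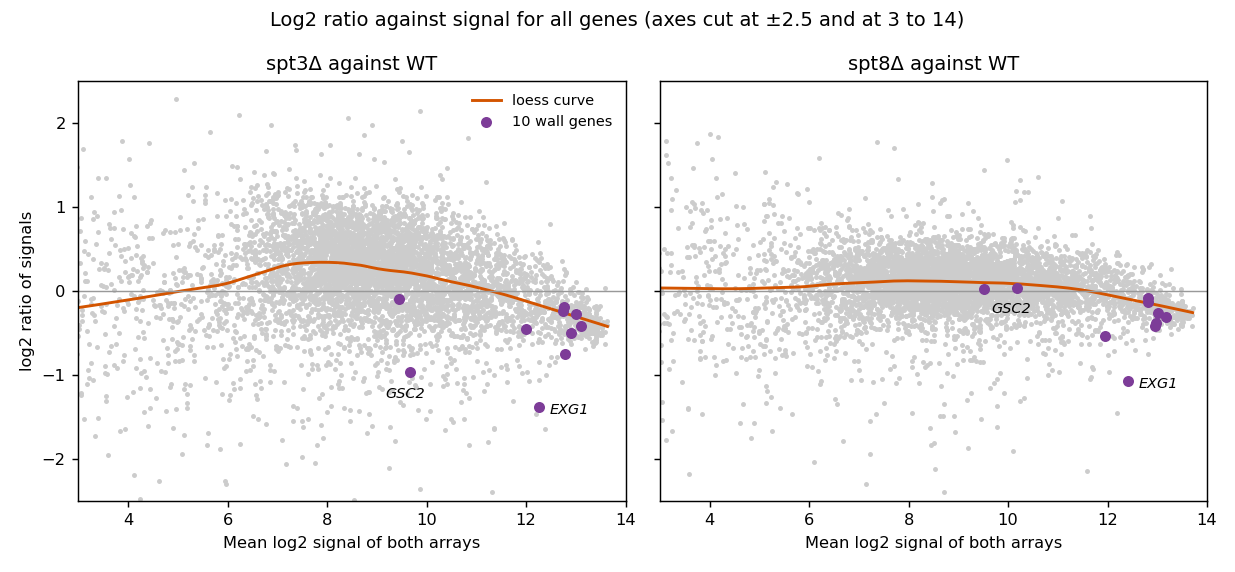
Log2 ratio of each mutant to WT (y axis) against the mean log2 signal of both arrays (x axis) for all genes (grey), with the loess curve (orange) and the 10 wall genes (purple). The curve bends below 0 at high signal, where most of the 10 genes lie close to it, whereas *EXG1* lies far below it in both panels and *GSC2* in the *spt3Δ* panel.

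A gene was counted as past the threshold when its log2 ratio was over 2 SD away from the average of all 5449 genes. A rule of this kind was used in the study. In *spt3Δ* this meant a signal at least 2.40-fold lower than WT, and 1 of the 10 genes, *EXG1*, was past it, against 2.73% of all genes; none of the 10 was past the upper threshold, against 0.973%. In *spt8Δ* the limit was 1.87-fold, and again *EXG1* alone of the 10 was lower past it, against 2.13% of all genes, with none higher, against 1.63%. Between the mutants 1 of the 10, *GSC2*, was lower in *spt3Δ* past the threshold, against 2.62% of all genes, and none was higher, against 0.844%. The precision of these ratios is unknown. The nearest measure at hand is the range between different probe sets of 1 gene, whose median over 47 genes was 0.21 on the log2 scale in *spt3Δ*, 0.20 in *spt8Δ* and 0.11 between the mutants.

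The signal of *FKS1*, which encodes the main catalytic subunit of the glucan synthase, was 7495 in WT against 6337 in *spt3Δ* and 6856 in *spt8Δ*. It was thus lower by 1.18-fold in *spt3Δ* and by 1.09-fold in *spt8Δ*, and after loess scaling its log2 ratios were 0.016 and 0.016. Among the 273 brightest genes it ranked 194 from the lowest in each mutant, so it lay above most genes of like signal.

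*GSC2*, the gene of the inducible synthase subunit, had a signal of 1146 in WT, 584 in *spt3Δ* and 1173 in *spt8Δ*. WT and *spt8Δ* were nearly equal and *spt3Δ* lay well below both. The signal was 1.96-fold lower in *spt3Δ* than in WT, a log2 ratio of −0.97 that did not reach the threshold, and 1.02-fold higher in *spt8Δ*. Only 4.33% of all genes had a lower ratio in *spt3Δ*. Against *spt8Δ* the *spt3Δ* signal was 2.01-fold lower, which passed the limit by a margin of −0.0084 on the log2 scale. Loess scaling moved *GSC2* further down, to −1.19 in *spt3Δ* against WT and −1.13 in *spt3Δ* against *spt8Δ*, with −0.051 in *spt8Δ* against WT. Among the 272 genes of its signal bin it ranked 8 from the lowest in *spt3Δ* against WT and 3 in *spt3Δ* against *spt8Δ*. It passed the threshold in *spt3Δ* with 50 added to each signal, a setting in which 2.70% of all genes were lower, and with a robust SD, in which 4.86% were.

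Among the other genes of glucan synthesis *ROM1* had a low signal in both mutants. The third synthase paralog, *FKS3*, of which little is known, was dim, with signals of 19.1 in WT, 17.4 in *spt3Δ* and 25.9 in *spt8Δ*. *RHO1*, the GTPase that activates the synthase, had signals of 4948, 4668 and 4703 in WT, *spt3Δ* and *spt8Δ*. *ROM1*, an exchange factor of Rho1, stood at 110 in WT against 53.1 in *spt3Δ* and 52.3 in *spt8Δ*, which was past the threshold in *spt8Δ*, at 2.10-fold lower, and not in *spt3Δ*, at 2.07-fold lower. Of 16 measured genes of glucan synthesis and its assembly, none was past the threshold in *spt3Δ* and *ROM1* alone in *spt8Δ*, with median log2 ratios of −0.10 and 0.049 (−0.14 and −0.013 after loess scaling).

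*EXG1* encodes the major secreted exoglucanase, which removes glucose from chain ends. Its signal was 7908 in WT against 3031 in *spt3Δ* and 3768 in *spt8Δ*. Both mutants lay far below WT and close to each other. The signal was 2.61-fold lower in *spt3Δ* (log2 ratio −1.38) and 2.10-fold lower in *spt8Δ* (−1.07), whereas *spt3Δ* and *spt8Δ* differed by 1.24-fold. Of all genes, 2.40% had a lower ratio in *spt3Δ* and 1.61% in *spt8Δ*. Among the 272 genes of its signal bin it ranked 3 from the lowest in *spt3Δ* and 2 in *spt8Δ*. After loess scaling the ratios were −1.22, which no longer passed the threshold of that setting (2.72% of all genes did), and −0.97, which passed it (2.18% did). Quantile normalization likewise put *EXG1* in *spt3Δ* at −1.21, short of a threshold that 2.61% of all genes passed. In *spt8Δ* the margins by which *EXG1* passed were thin, at −0.0069 with loess scaling and −0.0044 with quantile normalization. In the latter setting 126 of 5449 genes were lower past the threshold in *spt8Δ*.

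*EXG2*, whose product is an exoglucanase anchored at the cell surface, did not follow *EXG1*. Its signal was 722 in WT against 674 in *spt3Δ* and 736 in *spt8Δ*, so all arrays lay within 1.09-fold of each other. The log2 ratios were −0.099 in *spt3Δ* and 0.026 in *spt8Δ*, and −0.33 and −0.073 after loess scaling.

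*BGL2* encodes an abundant endoglucanase of the wall that can also join chains. Its signal was 9150 in WT against 6443 in *spt3Δ* and 7028 in *spt8Δ*, which is 1.42-fold and 1.30-fold lower than WT. With loess scaling the log2 ratios went from −0.51 to −0.22 in *spt3Δ* and from −0.38 to −0.22 in *spt8Δ*.

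*GAS1* encodes the glucanosyltransferase that lengthens glucan chains at the cell surface. Its signal was 9183 in WT against 5466 in *spt3Δ* and 6845 in *spt8Δ*. WT was highest and *spt3Δ* lowest, with a 1.68-fold lower signal in *spt3Δ* and a 1.34-fold lower one in *spt8Δ*. Few genes of like brightness lay lower: its rank from the lowest among the 273 brightest genes was 3 in *spt3Δ* and 9 in *spt8Δ*. The ratios were −0.75 and −0.42, and −0.48 and −0.26 after loess scaling, none of them past a threshold of 2 SD. Its paralogs *GAS3* and *GAS5* were 1.34-fold and 1.16-fold lower in *spt3Δ*, and 1.30-fold and 1.07-fold lower in *spt8Δ*.

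The log2 ratios of the mannoprotein genes ranged from −0.45 to −0.19 in *spt3Δ* and from −0.54 to −0.089 in *spt8Δ*. Those of the 4 glucan-modifying enzymes ranged from −1.38 to −0.099 and from −1.07 to 0.026. The wider range of the enzymes in *spt8Δ* rested on *EXG1*, as the next lowest, *GAS1*, lay at −0.42. After loess scaling the mannoproteins lay at −0.33 to 0.070 in *spt3Δ* and −0.50 to 0.056 in *spt8Δ*. The enzymes other than *EXG1* then lay at −0.48 to −0.22 and −0.26 to −0.073. The mannoproteins other than *CWP1* lay at −0.098 to 0.070 and −0.13 to 0.056, so the wider spread of each group rested on its lowest gene. *CWP1*, a GPI wall protein, was the only 1 of the 10 genes with its lowest signal in *spt8Δ*. It had 4786 in WT, 3496 in *spt3Δ* and 3285 in *spt8Δ*, or 1.37-fold and 1.46-fold below WT. After loess scaling it lay at −0.33 and −0.50, and its rank from the lowest was 11 of 272 genes of like signal in *spt8Δ*. It passed the lower threshold in *spt8Δ* when a robust SD was used, as did 5.62% of all genes.

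*CWP2* encodes a small GPI wall protein and is the neighbour of *CWP1* on the chromosome. Its signal was 10263 in WT against 7655 in *spt3Δ* and 8240 in *spt8Δ*, or 1.34-fold and 1.25-fold lower, with the mutants in the opposite order to *CWP1*. After loess scaling its log2 ratios were −0.098 and −0.13.

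*SED1*, the gene of a GPI protein that is prominent in stationary phase, had a signal of 9033 in WT, 7439 in *spt3Δ* and 7539 in *spt8Δ*. The mutants were almost equal, at 1.21-fold and 1.20-fold below WT. Loess scaling left log2 ratios of 0.024 and −0.091.

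*HSP150* encodes a heat-inducible protein of the PIR family. Its signal was 7430 in WT against 6508 in *spt3Δ* and 6986 in *spt8Δ*, the smallest differences among the 4 mannoprotein genes in *spt8Δ* and *spt3Δ* alike. They came to 1.14-fold and 1.06-fold lower, and with loess scaling to log2 ratios of 0.070 and 0.056 on the other side of WT. *HSP150* lies between *PIR5* and *CIS3*, both of the same family. *CIS3* was lower by 1.43-fold in *spt3Δ* and by 1.17-fold in *spt8Δ*. *PIR5*, a dim gene, had signals of 57.2 in WT, 113 in *spt3Δ* and 72.1 in *spt8Δ*. None of the 4 other PIR genes was past the threshold.

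**Figure D3:**
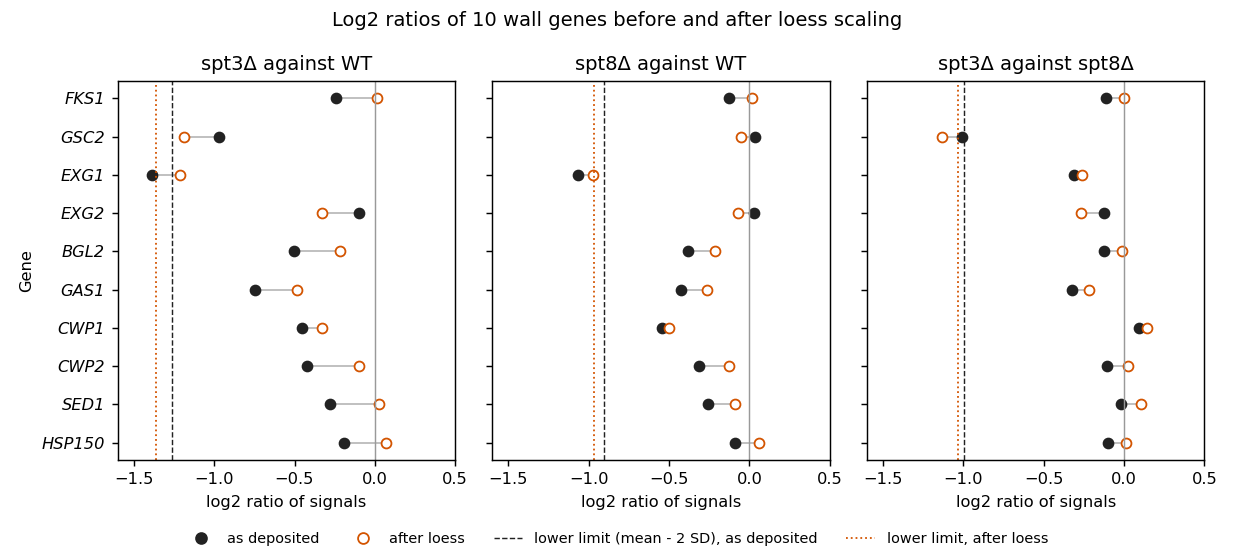
Log2 ratio of signals (x axis) for each of the 10 genes in *spt3Δ* against WT, *spt8Δ* against WT and *spt3Δ* against *spt8Δ*, as deposited (filled) and after loess scaling (open), with the lower limit of each setting as a dashed or dotted line. *EXG1* reaches a limit in both comparisons with WT and *GSC2* in that between the mutants, and loess scaling moves the bright genes upward, most of them close to 0, and *GSC2* and *EXG2* downward.

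The mutants were also set against each other, which leaves the WT array out. Of the 10 genes 9 had a lower signal in *spt3Δ* than in *spt8Δ*, with *CWP1* as the exception, at 1.06-fold higher. The median log2 ratio was −0.12, against 0.086 over all genes and −0.14 in the brightest bin, where 93.8% of genes were lower in *spt3Δ*. After loess scaling the median was −0.0072, 6 of the 10 lay below 0, and *GSC2* stayed past the threshold, as did 2.39% of all genes. *GAS1* was 1.25-fold and *EXG1* 1.24-fold lower in *spt3Δ* than in *spt8Δ*. The other 7 genes differed by 1.09-fold or less between the mutants.

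The 10 genes were then set beside 91 other measured genes of the wall, in 6 lists. Of these 91, 7 (7.69%) were lower past the threshold in *spt3Δ*, against 2.73% of all genes, and 1 was higher, against 0.973%. In *spt8Δ* 6 (6.59%) were lower, against 2.13%, and 1 was higher, against 1.63%. Between the mutants 5 (5.49%) were lower in *spt3Δ*, against 2.62%, and none was higher, against 0.844%. These counts include *SPS2*, the only higher gene in either mutant, and *SPS22* among the lower ones in *spt3Δ*, whose ratios to WT rest on signals not above background and do not reach the limits as bounds. Their log2 ratios had medians of −0.22 (*spt3Δ*) and −0.063 (*spt8Δ*), which loess scaling left at −0.23 and −0.066. The counts of lower genes rested on the threshold. In *spt3Δ* they were 11 at a threshold of 2-fold (4.20% of all genes), 13 with 50 added to each signal (2.70%) and 14 with a robust SD (4.86%). With 50 added, 2.50% of all genes were lower in *spt8Δ* and 2.40% between the mutants; with a robust SD 5.43% were lower between the mutants.

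A list of 17 genes held other enzymes that reshape glucan, apart from the 4 above, and the SUN family of wall proteins. These genes lay below WT in 16 of 17 cases in *spt3Δ* and in 15 of 17 in *spt8Δ*. Of all genes 38.8% and 41.1% did, with a far larger share among the brightest. After loess scaling 17 and 15 of the 17 lay below 0, against 50.5% and 50.4% of all genes. Of these 17 genes, 3 were lower past the threshold in *spt3Δ* and 2 in *spt8Δ*, none was higher, and the medians were −0.44 and −0.20 (−0.47 and −0.11 after loess scaling). *NCA3*, of the SUN family, had signals of 178 in WT, 18.4 in *spt3Δ* and 92.7 in *spt8Δ*, which is 9.67-fold and 1.92-fold lower. Its *spt3Δ* signal was above background but within the 0.826 to 48.5 of the a-specific genes on that array, so the 9.67-fold is uncertain. *DSE4*, the endoglucanase that parts daughter from mother cells, went from 2539 in WT to 864 in *spt3Δ* and 1267 in *spt8Δ*. *UTR2*, a transglycosylase that links chitin to glucan, was lower by 2.47-fold in *spt3Δ* and by 1.70-fold in *spt8Δ*; the *spt3Δ* value was past the threshold, though not after loess scaling, and the *spt8Δ* value was not.

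Among 15 other GPI wall proteins, 4 were lower and 1 was higher past the threshold in *spt3Δ*, against 2.73% and 0.973% of all genes. In *spt8Δ* 2 were lower and 1 was higher, against 2.13% and 1.63%. The medians were −0.94 and −0.37 (−1.02 and −0.18 after loess scaling). *SAG1*, the alpha-agglutinin of mating, had signals of 5826 in WT against 1109 in *spt3Δ* and 2984 in *spt8Δ*, and its *spt8Δ* value was past the threshold only before loess scaling. It is an alpha-specific gene, and the summed signal of the 4 such genes was 28800 in WT against 12800 in *spt3Δ* and 19000 in *spt8Δ*; the part of mating type in these values was not tested. *SPI1*, also a GPI protein, had signals of 675, 111 and 335 in WT, *spt3Δ* and *spt8Δ*. It was past the threshold in each mutant, at 6.07-fold and 2.02-fold below WT, and was 3.01-fold lower in *spt3Δ* than in *spt8Δ*. *PLB2*, a phospholipase gene, was 2.70-fold lower in *spt3Δ*. The sporulation genes *SPS2* and *SPS22* are in these counts by ratios to signals not above background, so their calls against WT do not stand as bounds. *SPS22* had 12.7 in WT, 3.83 (not above background) in *spt3Δ* and 13.7 in *spt8Δ*, a signal at least 1.91-fold lower in *spt3Δ* than in WT, short of the limit of 2.40-fold. *SPS2* was above background in *spt3Δ* alone, at 8.96, at least 1.25-fold higher than WT, short of the limit of 2.78-fold, and has no fold in *spt8Δ*. *CCW12* and *ECM33*, GPI proteins of growing cells, were 1.50-fold and 1.24-fold lower in *spt3Δ*, and 1.33-fold and 1.13-fold lower in *spt8Δ*. The *ECM33* ratios lay within the range of the bright mannoprotein genes *CWP2*, *SED1* and *HSP150*. Those of *CCW12* lay below that range, also after loess scaling, at −0.20 in *spt3Δ* and −0.18 in *spt8Δ*.

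*YPS1*, the gene of a surface protease that is induced by wall stress, had its lowest signal in *spt3Δ* and its highest in *spt8Δ*. *GSC2* had the same order, though its WT and *spt8Δ* signals differed by only 1.02-fold. The order was not particular to them, as *EXG2*, *TOS6* and *OCH1* had it too. The *YPS1* signal was 1346 in WT against 661 in *spt3Δ* and 1949 in *spt8Δ*. It was 2.04-fold below WT in *spt3Δ* but 1.45-fold higher in *spt8Δ*, neither past the threshold, and 2.95-fold lower in *spt3Δ* than in *spt8Δ*, past it.

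Of 17 chitin genes none was past the threshold of 2 SD in either mutant, where 2.73% (*spt3Δ*) and 2.13% (*spt8Δ*) of all genes were lower. With 50 added to each signal 1 was lower in each, against 2.70% and 2.50% of all genes. With a robust SD 1 was lower in *spt3Δ* and 2 in *spt8Δ*, against 4.86% and 5.62%. The list had medians of 0.15 and 0.048, which loess scaling turned to −0.028 and 0.0020. The chitinase gene *CTS1* had signals of 7637 in WT, 3823 in *spt3Δ* and 4703 in *spt8Δ*. The chitin synthase gene *CHS3* was lower by 1.23-fold in *spt3Δ* and by 1.01-fold in *spt8Δ*. The synthase genes *CHS1* and *CHS2* were 1.09-fold and 1.20-fold higher in *spt3Δ*, and 1.21-fold and 1.08-fold higher in *spt8Δ*. As deposited, 5 (*spt3Δ*) and 7 (*spt8Δ*) of the 17 chitin genes lay below WT, against 38.8% and 41.1% of all genes. After loess scaling 10 and 8 of them did, against 50.5% and 50.4%. Of 22 mannosyltransferase genes none was past the threshold of 2 SD in *spt3Δ* and 1 was lower in *spt8Δ*, against 2.73% and 2.13% of all genes lower. The medians were −0.16 and −0.033 (−0.14 and −0.065 after loess scaling). The lower gene, *MNN1*, adds the terminal mannose of side chains, and its signal was 611 in WT against 291 in *spt3Δ* and 196 in *spt8Δ*. After loess scaling it was past the threshold in *spt3Δ* too.

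**Figure D4:**
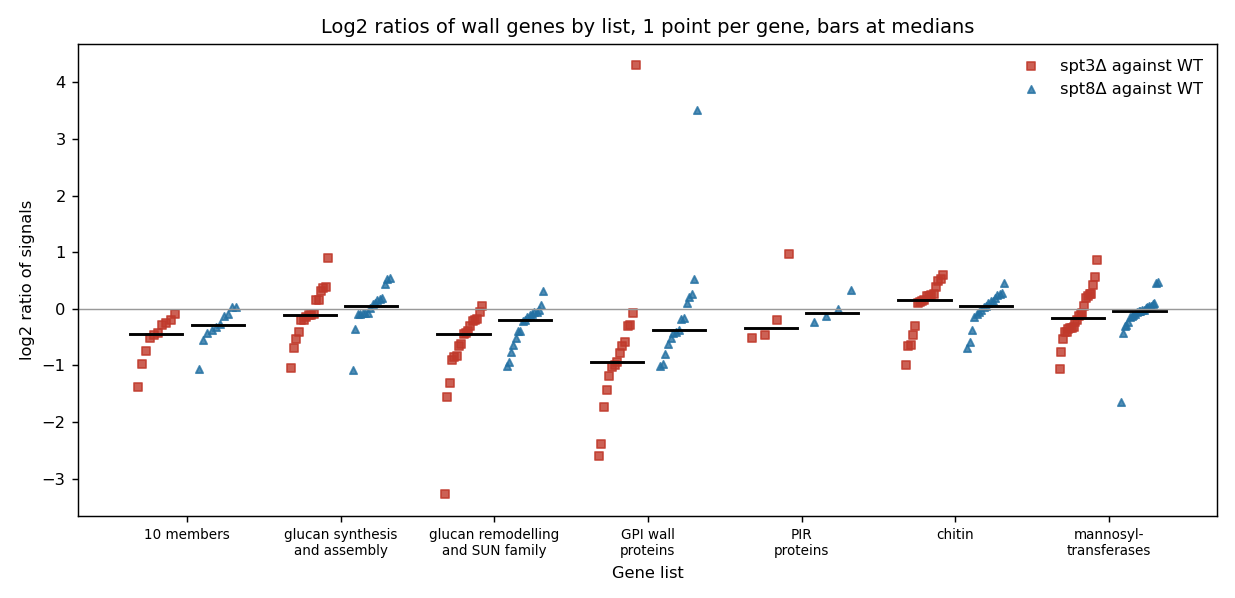
Log2 ratio to WT (y axis) of each gene in the 10 members and 6 other wall gene lists (x axis), *spt3Δ* as squares and *spt8Δ* as triangles, with a bar at each median. The median of the GPI wall proteins, −0.94 in *spt3Δ*, is the lowest, and that of chitin genes, 0.15 as deposited, is the highest.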

How the data were processed

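Total RNA (200 ng) of 1 culture per strain was amplified, labelled with biotin and hybridized by the study to 1 array each. The authors deposited 1 intensity per probe set on a linear scale, made with MAS5 at default settings; the Affymetrix Expression Console is also in the submitters' processing notes, its version not given in the sources used here. Trimmed means (2% from each end) were 499.7, 499.8 and 499.7 in WT, *spt3Δ* and *spt8Δ*. Of 10928 probe sets, 5498 matched *S. cerevisiae* genes of the R64 table by gene ID, and log2 signals of 1 gene were averaged. Background was the 95th percentile of 1746 *S. pombe* probe sets, at 7.17, 6.67 and 8.61, and a ratio with 1 side below it is a bound. *LEU2*, given as deleted, lay above it on every array, so a signal a little above background does not show that a gene is expressed. The number of arrays limits the precision. Loess scaling used a span of 0.3 (statsmodels 0.14.6, Python 3.11.15). The steps were tried on simulated arrays with the same noise at every signal level, unlike these arrays. That trial does not bear on the precision of the ratios reported here.

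The members and lists were chosen with earlier results of these data known. Named genes were the members, the targeted and strain-check genes and, of each list, up to 4 genes past the threshold by largest ratio; others, such as *YPS1*, *PLB2*, *CTS1*, *GAS3*, *RHO1* and *CHS3*, were picked after their values were seen. Alternatives were quantile or loess scaling, centring on the median, 50 added to each signal, genes above background only, leaving out shared probe sets, and thresholds of 2-fold or 2 robust SD (1.4826 times the median absolute deviation). Gene order was that of R64. Sequences were not used here, and 1 gene list is not reported here.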

Additional observations from a re-analysis of the deposited data

Results flagged for a closer look

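For 3 genes named above the mutants lay on opposite sides of WT, with a ratio between the mutants past the threshold; with 1 array per strain the difference was not tested. *GSC2* had a log2 ratio of −0.97 in *spt3Δ* and 0.034 in *spt8Δ*, with −1.005 in *spt3Δ* against *spt8Δ*; the *spt8Δ* value turned to −0.051 after loess scaling. *YPS1* had −1.03 and 0.53, with −1.56 between the mutants. *SPS22* had −1.73 and 0.11, with −1.84 between the mutants, but its signal was not above background in *spt3Δ*, so its ratios there are bounds, of at least 1.91-fold lower than WT, short of the limit, and at least 2.06-fold lower than *spt8Δ*.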

How the results depend on the processing

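Of 132 recomputed counts and medians, 111 stayed within 1.5 times the main count or, for medians, within the median range between probe sets of 1 gene. The exceptions for the 10 genes were the count of lower genes in *spt3Δ*, 0 with quantile or loess scaling and 2 with 50 added or a robust SD; that in *spt8Δ*, 2 with a robust SD; and the median between the mutants, 0.0044 with quantile and −0.0072 with loess scaling. Part of the 132 could not change. Centring moves ratios and limits together, and the filters on background and shared probe sets leave the medians of the 10 genes as they were. The range is also wide, as a move of the *spt8Δ* median from −0.29 to −0.11 with loess scaling stayed within it. For the 91 other wall genes, lower genes numbered 11 (2-fold), 13 (50 added) and 14 (robust SD) in *spt3Δ*, 10 (50 added) and 13 (robust SD) in *spt8Δ*, and 9 (50 added) and 10 (robust SD) between the mutants. Higher genes numbered 0 in each mutant with 50 added or genes above background only, and 1 between the mutants with quantile or loess scaling or a robust SD. The cause was not tested. The log2 ratios to WT of *FKS1* and *HSP150* in both mutants and of *SED1* in *spt3Δ* lay above 0 with quantile and loess scaling. Those of *GSC2* and *EXG2* in *spt8Δ* lay below 0 with these and with centring. Those of *EXG1*, *BGL2*, *GAS1*, *CWP1* and *CWP2* stayed below 0 in both mutants with quantile and loess scaling and with 50 added. Centring lowered every ratio to WT, so it could not turn them. Taking only genes above background or leaving out shared probe sets could not change a ratio of the 10 genes. No paired analysis was possible because there is 1 array per strain, and for the same reason no array could be left out. Signals near background, as of *SPS2*, *SPS22*, *FKS3* and, in *spt3Δ*, *NCA3*, limit what can be read from those genes.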
